A study of Mus musculus with 8 samples.

Results

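The genes described here encode the heat shock proteins and DNAJ co-chaperones of the cytosol and the endoplasmic reticulum (ER). They were taken from the deposited table as protein-coding genes whose symbol starts with Hspa, Hspb or Hsph and a digit, with Hsp90, or with Dnaja, Dnajb or Dnajc and a digit. Hspa9 and Dnaja3, 2 mitochondrial chaperones, were left out by that rule. It found 68 of the 48328 genes in the table. Of these, 56 reached 1 FPKM (fragments scaled by transcript length and by the mapped fragments of the library) in at least 4 of 8 libraries and were tested, among 10521 tested genes in all, and 12 did not. The name given to the group does not cover every gene the rule finds. Dnajc11, Dnajc15, Dnajc19 and Dnajc30 encode mitochondrial proteins, and Hspb11, also known as Ift25, belongs to the transport machinery of cilia.

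Total RNA was sequenced from tibialis anterior, a fast hindlimb muscle, of C57BL/6J mice aged 24 months. There were 4 libraries of the genotype K320E-skm, whose muscle fibres make a dominant mutant Twinkle, the enzyme that unwinds mitochondrial DNA for replication, and 4 of wild-type mice. The promoter or Cre driver behind the mutant protein is not given in the sources used here. In each genotype 2 libraries were labelled male and 2 female.

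Hsp70 proteins bind exposed hydrophobic stretches of unfolded proteins in cycles driven by ATP. DNAJ proteins bring them substrates and stimulate their ATPase, Hsp110 proteins exchange their nucleotide, and Hsp90 completes the folding of clients such as kinases, steroid receptors and, in muscle, myosin. Small heat shock proteins hold unfolding proteins without ATP and in striated muscle sit at the Z-disc and the contractile filaments. The transcription factor HSF1 drives the stress-inducible members in the cytosol, and the unfolded protein response drives those of the ER.

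FPKM summed to between 731824 and 858029 per library, with no read counts, so the depth is unknown. Of the muscle fibre markers, Ckm stood at 5421 to 7408 FPKM and Des at 452 to 594 FPKM in all 8 libraries, while Mb ran from 725 FPKM in K320E-skm 1 to 2521 FPKM in K320E-skm 4. The 2 mitochondrial ribosomal RNAs took 41.5 to 46.9% of summed FPKM in K320E-skm and 31.2 to 37.5% in wild-type libraries (exact permutation, two-sided, p = 0.0286, which is the lowest possible with 4 against 4). FPKM are relative to all fragments, and over all tested genes the median log2 fold change stood at −0.14 in the deposited values and at 0.00 after median-ratio rescaling, in which each library is divided by its median ratio to the others. The part of the ribosomal RNA in that shift was not tested, and the values of role groups and of many members are therefore also given rescaled. K320E-skm 4 went against its male label: Xist was at 10.2 FPKM there, against 0.0138 to 0.0226 FPKM in the other libraries labelled male and 8.82 to 15.0 FPKM in those labelled female. Genotype was compared without a sex term for that reason.

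None of the 56 tested chaperone genes passed limma at an adjusted p under 0.05, and the smallest adjusted p among them was 0.289. Over all tested genes 2 passed, or 0.019%, neither of them a chaperone, with 1 passing without K320E-skm 2 or K320E-skm 3 and 4 without K320E-skm 4. At an unadjusted p under 0.05, 1 member was higher in K320E-skm muscle, Hspb1, against 1.07% of all tested genes. Another 7 were lower, Dnajc25, Dnajc21, Dnajc19, Dnajb14, Dnajc9, Dnajc15 and Dnajc7, against 13.6% of all tested genes. No overlap between genotypes, with all 4 mutant libraries on one side of all 4 wild-type ones, was seen for 0 members on the higher side, where the share of all tested genes was 0.333%. On the lower side this held for 5 members, Dnajb2, Dnajb14, Dnajc9, Dnajc21 and Dnajc25, where the share of all tested genes was 9.59%. The share of lower members was close to that of all genes on both counts. Without wild-type 2, 12 members lay apart, without wild-type 3 there were 9, and without K320E-skm 1 or K320E-skm 4 there were 8. Members at an unadjusted p under 0.05 numbered 5 without K320E-skm 2 and 3 without K320E-skm 3. The matching shares of all tested genes were not counted, and fewer libraries make separation easier for any gene. These counts therefore cannot be read as a result about the chaperones.

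Log2 fold changes of the members had a median of −0.11 as deposited, with 15 above 0 and 41 below, and 0.03 after rescaling. Over all 10521 tested genes 2152 were above 0 and 8369 below as deposited, so most genes of any kind lay below. Relative to the median gene, 31 of the 56 stood higher as deposited and 33 after rescaling. After rescaling, 4 members were higher at an unadjusted p under 0.05, Hspb1, Dnajc5, Hsp90aa1 and Hspa5, against 5.19% of all tested genes, and 0 were lower, against 4.6%. The genotypes then lay apart for 4 higher members, Hspb1, Dnajc5, Dnajb11 and Dnajc14, against 2.91% of all tested genes, and for 1 lower member, Dnajc9, against 2.98%. The rescaled values thus moved the split of the members from mostly lower to mostly higher without any member passing the adjusted threshold. Over all tested genes the split at an unadjusted p under 0.05 also moved, from 113 higher and 1431 lower to 546 higher and 484 lower. A move towards higher values is therefore not particular to the chaperones. The 95% interval of a member's log2 fold change reached 0.33 to either side at the median, so smaller differences could not be told from 0 for a typical member.

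**Figure D1:**
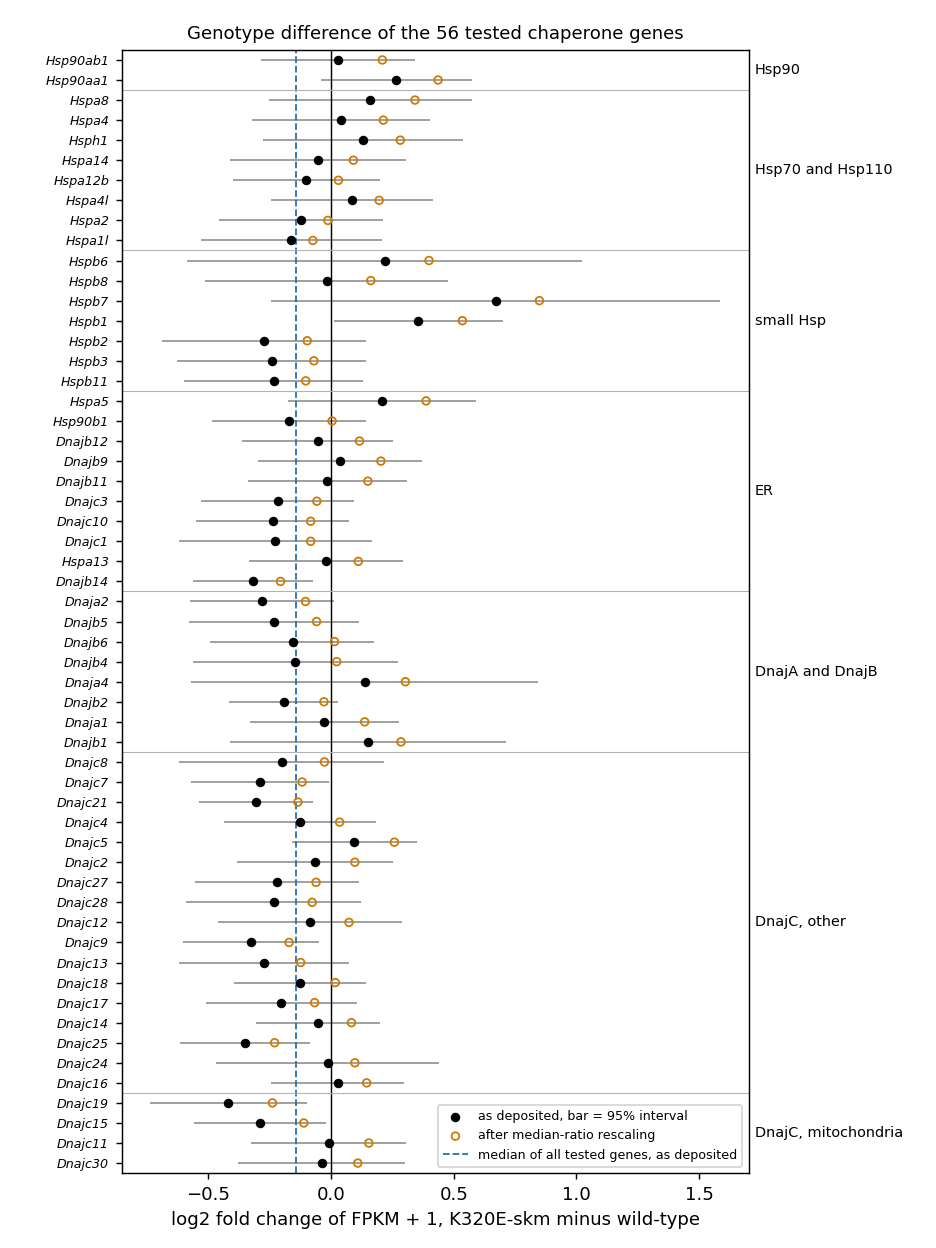
Log2 fold change of FPKM + 1 (x axis), K320E-skm minus wild-type, for each of the 56 tested members, grouped by role. Filled points are deposited values with their 95% interval, open points are rescaled values, and the dashed line is the median of all tested genes (−0.14). Hspb7 and Hspb1 lie furthest to the right and Dnajc19 furthest to the left.

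Both cytosolic Hsp90 genes had values above the median gene. Hsp90ab1 (ENSMUSG00000023944, chromosome 17, 45567775 to 45573271, GRCm38), the constitutive form, measured 174, 207, 197 and 182 FPKM in the K320E-skm libraries 1 to 4 and 196, 219, 172 and 162 FPKM in the wild-type libraries 1 to 4. The genotypes overlapped fully, with a log2 fold change of 0.03 (95% interval −0.29 to 0.34) and 0.21 rescaled (SE 0.13). The inducible form, Hsp90aa1 (ENSMUSG00000021270, chromosome 12, 110690605 to 110702728), was less abundant, at 16.1, 19.8, 17.4 and 13.8 FPKM against 12.5, 16.02, 14.0 and 12.4 FPKM. Its 3 highest libraries were K320E-skm 1 to 3, and K320E-skm 4 lay inside the wild-type range. The log2 fold change was 0.27 as deposited (SE 0.14, limma unadjusted p = 0.0836, adjusted p = 0.389) and 0.44 rescaled (SE 0.15, adjusted p = 0.407).

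Hspa8 (ENSMUSG00000015656, chromosome 9, 40800984 to 40810087), which encodes the constitutive cytosolic Hsp70, Hsc70, had the highest mean FPKM of all members. The K320E-skm libraries 1 to 4 measured 279, 363, 329 and 286 FPKM and the wild-type libraries 1 to 4 measured 276, 383, 222 and 261 FPKM. The highest and the lowest library were both wild-type, and the log2 fold change was 0.16 (SE 0.19, limma adjusted p = 0.686) and 0.34 rescaled (SE 0.18). Hspa8 hosts snoRNAs on the same strand, and how fragments were divided among them was not tested. Of the Hsp110 family, the nucleotide exchange factors Hspa4 and Hsph1 had log2 fold changes of 0.04 (SE 0.16) and 0.13 (SE 0.18). Hsph1 was high in K320E-skm 2 and 3 at 6.98 and 7.65 FPKM, low in K320E-skm 1 and 4 at 4.62 and 3.97 FPKM, and at 4.26 to 5.60 FPKM in wild-type muscle, so the mutant libraries fell on both sides of the wild-type ones. The 8 tested members of the cytosolic Hsp70 and Hsp110 group had a median of −0.01 as deposited and 0.14 rescaled, with no member at an unadjusted p under 0.05. Hspa4l, Hspa12b, Hspa2 and Hspa1l were at 0.09, −0.10, −0.12 and −0.16.

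The 2 strongly stress-inducible genes of the family, Hspa1a and Hspa1b, stayed below the filter, each reaching 1 FPKM in 1 library only. Hspa1a measured 1.30, 0.792, 0.365 and 0.455 FPKM in the K320E-skm libraries 1 to 4 and 0.477, 0.598, 0.242 and 0.286 FPKM in the wild-type libraries 1 to 4. Hspa1b stood at 1.67, 0.906, 0.493 and 0.374 FPKM against 0.599, 0.462, 0.189 and 0.456 FPKM. K320E-skm 1 and then K320E-skm 2 were highest for both, while K320E-skm 3 and 4 overlapped the wild-type libraries (exact permutation p = 0.229 for each). The copies are near-identical, so fragments may have been split between them. Hspa1l and Hspa2, known mainly from testis, were just above the filter, with 5 and 7 libraries at 1 FPKM or more. Just below it was Hspa12a, a distant Hsp70 relative, with 2 such libraries. It was the one Hsp70 gene whose genotypes lay apart, at 0.588 to 0.722 FPKM in K320E-skm and 0.791 to 1.14 FPKM in wild-type muscle (exact permutation p = 0.0286). The other 9 members below the filter, Dnajb3, Dnajb7, Dnajb8, Dnajb13, Dnajc5b, Dnajc5g, Dnajc6, Dnajc22 and Hspb9, reached 1 FPKM in no library, and Dnajb8 was listed at 0 in all 8.

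The sequence before the Hspa1a start is shown because it is the textbook heat shock promoter, a reference for the other members. Promoter windows are the 250 bases before a RefSeq start (GRCm38.p6), given 5′ to 3′ on the gene's strand. Capitals mark 2 inverted units of the heat shock element bound by HSF1, GAANNTTC or TTCNNGAA, searched on both strands. In Hspa1a (chr17:34972157-34972406, minus strand) the site begins at −104 relative to the start.
Hspa1a: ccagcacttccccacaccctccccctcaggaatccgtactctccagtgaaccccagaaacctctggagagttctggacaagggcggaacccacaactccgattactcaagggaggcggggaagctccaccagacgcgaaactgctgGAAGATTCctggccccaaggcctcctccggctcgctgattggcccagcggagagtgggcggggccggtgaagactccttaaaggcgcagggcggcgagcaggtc

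Of the 68 members, 55 had such a window and 12 held this pair of units, or 21.8%, against 14.5% of all 27025 genes with a window. They were Dnaja1, Dnaja4, Dnajb4, Dnajb6, Dnajc10, Dnajc27, Hspa1a, Hspa1b, Hspb1, Hspb3, Hspb6 and Hsph1. The 10 tested members with the pair had a median fold change (log2) of −0.09 (rescaled 0.08), and the 35 without it −0.17 (rescaled −0.03). Over all 962 tested genes with the pair it was −0.13. None of the 5 lower members whose genotypes lay apart held the pair, and neither did most of the 55 members or most of all genes with a window. A match is letters in a window and does not show binding. Members with no window in the table were Dnajc2, Dnajc5, Dnajc5b, Dnajc11, Dnajc12, Dnajc18, Dnajc22, Dnajc30, Hspa8, Hspa13, Hsp90aa1, Hsp90ab1 and Hspb2.

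**Figure D2:**
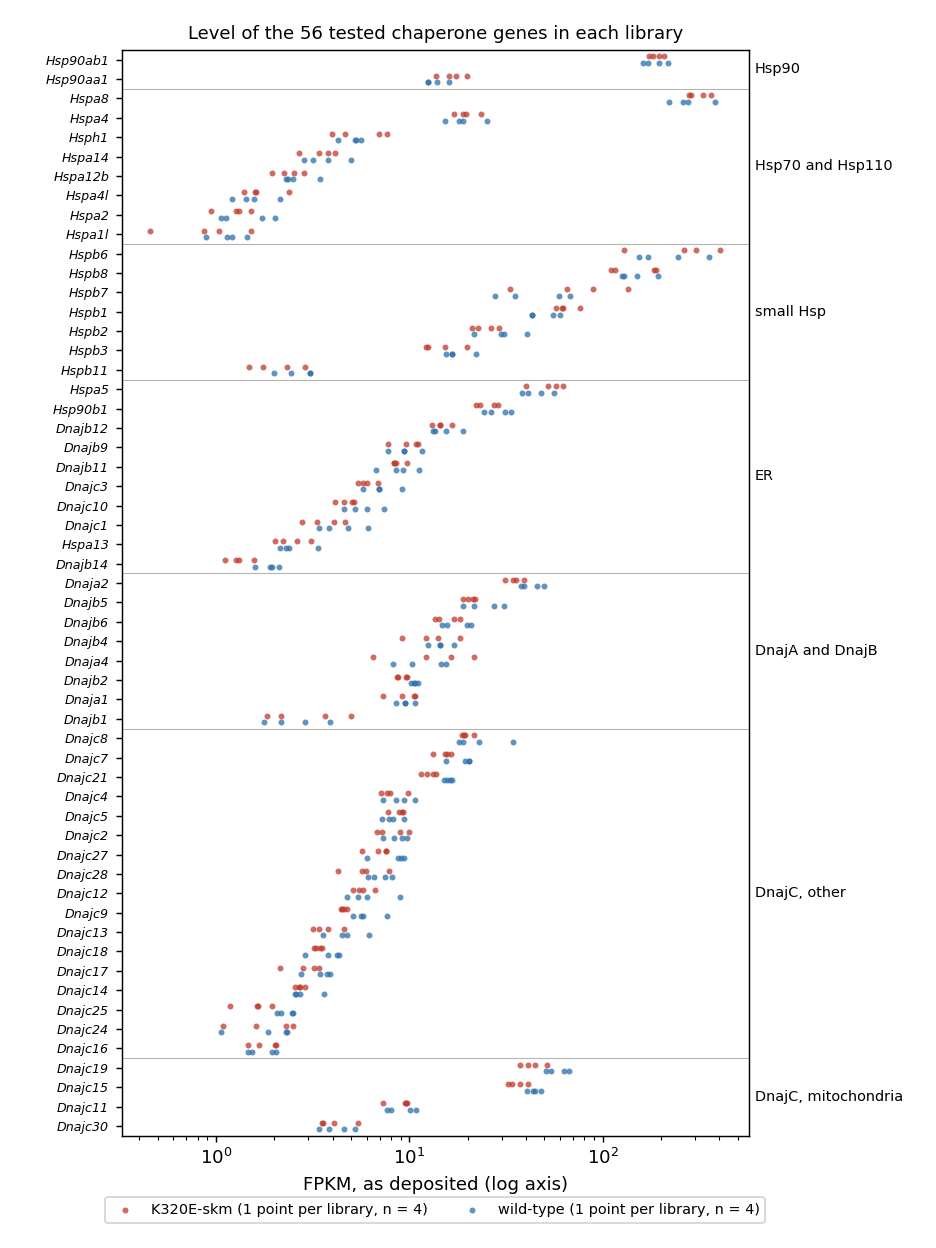
FPKM of the 56 tested members (x axis, log scale), 1 point per library, 4 K320E-skm and 4 wild-type, grouped by role and ordered by mean level. Hspa8, Hspb6, Hsp90ab1 and Hspb8 stand highest, and Hspb7, Hspb6 and Dnaja4 spread widely between libraries of the same genotype.

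The small heat shock genes had the highest summed FPKM of the role groups in each of the 8 libraries, and on the log2(FPKM + 1) scale their members Hspb7 and Hspb6 had the largest SDs over the libraries of all tested members, 0.764 and 0.592. Together with Hspa8 and Hsp90ab1, the small heat shock genes Hspb6 and Hspb8 made up 50.5 to 60.8% of the FPKM summed over all 68 members, and that sum ran from 1325 to 1832 FPKM in K320E-skm and from 1306 to 1890 FPKM in wild-type muscle. Of the 7 tested members 3 had a log2 fold change above 0, and the group median was −0.02 as deposited and 0.16 rescaled.

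Hspb1 (ENSMUSG00000004951, chromosome 5, 135887919 to 135889563), encoding the small heat shock protein Hsp25 that binds actin filaments, was the one member higher at an unadjusted p under 0.05 as deposited. It measured 57.5, 76.8, 61.5 and 62.7 FPKM in the K320E-skm libraries 1 to 4 and 55.6, 60.2, 43.1 and 43.2 FPKM in the wild-type libraries 1 to 4. Only wild-type 2 reached above the lowest mutant library. Means were 64.6 ± 8.42 and 50.5 ± 8.69 FPKM (SD, n = 4 each, exact permutation p = 0.0571). The log2 fold change was 0.36 as deposited (SE 0.15, limma adjusted p = 0.334) and 0.53 rescaled (SE 0.12, adjusted p = 0.314), where the genotypes no longer overlapped. In bulk muscle, a change in the number of cells of a type and a change in RNA per cell cannot be told apart, for this and all other members.

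Hspb7 (ENSMUSG00000006221, chromosome 4, 141420779 to 141425311), a binder of filamin C in heart and skeletal muscle, had the largest log2 fold change of the tested members with all 8 libraries in the fit, and a wide error. The K320E-skm libraries 1 to 4 measured 33.2, 88.9, 65.7 and 135 FPKM and the wild-type libraries 1 to 4 measured 35.2, 59.7, 27.7 and 67.6 FPKM. The lowest mutant library lay inside the wild-type range and the highest far above it. The log2 fold change was 0.67 (SE 0.41, 95% interval −0.24 to 1.59, limma adjusted p = 0.446) and 0.85 rescaled (SE 0.43). Relative to the median gene it was 0.81, which became 0.51 without K320E-skm 4, beside 0.51 for Hspb1. With a sex term and K320E-skm 4 left out it was 0.33, below Hspb1 at 0.48. Hspb6 (ENSMUSG00000036854, chromosome 7, 30552178 to 30555443), encoding Hsp20, stood at 129, 303, 265 and 407 FPKM against 172, 355, 154 and 245 FPKM. Its log2 fold change was 0.22 (SE 0.36, 95% interval −0.59 to 1.02) and 0.40 rescaled (SE 0.38). Relative to the median gene it was 0.36, and it moved to 0.67 without K320E-skm 1, to 0.14 without K320E-skm 4, and to −0.03 with a sex term and K320E-skm 4 left out.

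Hspb8 (ENSMUSG00000041548, chromosome 5, 116408491 to 116422864), which works with Bag3 to send damaged Z-disc proteins to autophagy, stood at 116, 185, 110 and 189 FPKM against 151, 193, 130 and 126 FPKM. Means of 150.2 ± 42.5 and 149.7 ± 30.8 FPKM (SD, n = 4 each) left a log2 fold change of −0.02, with a 95% interval from −0.51 to 0.48, and of 0.16 rescaled (SE 0.21). Hspb2 and Hspb3, which form a complex in muscle, had log2 fold changes of −0.27 (SE 0.19) and −0.24 (SE 0.17). Hspb2 overlaps Cryab on the opposite strand, and reads of the 2 genes could mix if strand was not used in counting.

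Hspb1 and Hspb7 are shown because their genotype values were the highest of the group while their promoters differ in these letters. Hspb1 (chr5:135887669-135887918, plus strand) holds 2 pairs of units, beginning at −117 and −97 relative to the start, and Hspb7 (chr4:141420529-141420778, plus strand) holds none in this window.
Hspb1: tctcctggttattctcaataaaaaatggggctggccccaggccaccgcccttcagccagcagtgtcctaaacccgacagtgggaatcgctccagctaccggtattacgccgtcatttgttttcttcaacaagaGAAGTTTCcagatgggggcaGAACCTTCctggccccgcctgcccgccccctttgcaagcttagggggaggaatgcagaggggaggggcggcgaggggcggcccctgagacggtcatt
Hspb7: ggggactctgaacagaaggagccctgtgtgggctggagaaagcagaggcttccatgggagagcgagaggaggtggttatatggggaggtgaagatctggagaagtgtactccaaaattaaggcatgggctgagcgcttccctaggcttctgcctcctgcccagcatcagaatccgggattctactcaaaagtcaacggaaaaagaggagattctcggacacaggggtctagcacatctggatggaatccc

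**Figure D3:**
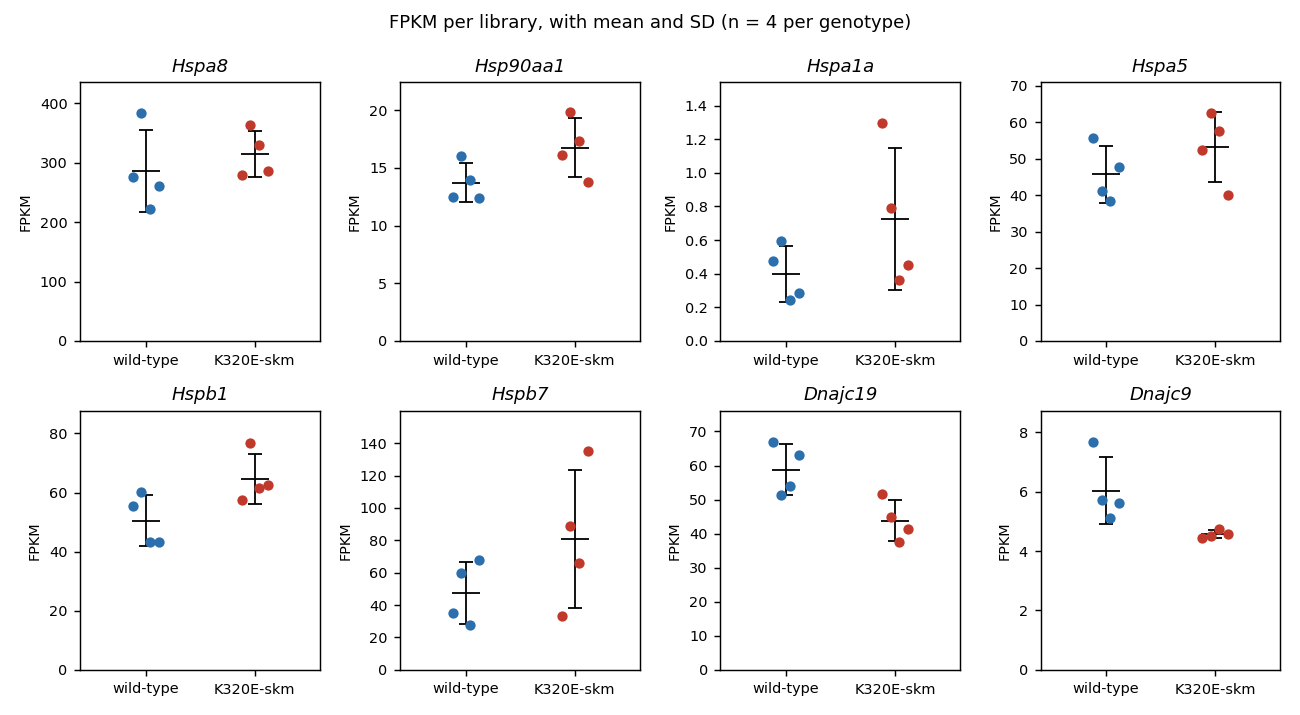
FPKM (y axis, from 0) of 8 members in each library, with the mean and SD of 4 wild-type and 4 K320E-skm libraries. Dnajc9 is the one gene shown whose genotypes do not overlap, and Hspa1a, Hspb7 and Hspa5 show mutant libraries both within and above the wild-type range.

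Across libraries, Hspb7, Hspb6 and Dnaja4, a cytosolic DNAJ protein of muscle and heart, were high and low in the same libraries. These genes and their comparison by sex label were chosen after the values were seen. In the 4 libraries labelled female, Hspb7 was at 59.7 to 88.9 FPKM, Hspb6 at 245 to 355 FPKM and Dnaja4 at 12.1 to 16.5 FPKM. In the 3 libraries labelled male other than K320E-skm 4, they were at 27.7 to 35.2, 129 to 172 and 6.51 to 10.3 FPKM, below every library labelled female. K320E-skm 4, labelled male and high in Xist, had the highest value of all 8 libraries for each, at 135, 407 and 21.5 FPKM.

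In a limma fit with terms for genotype and sex label and without K320E-skm 4, log2 differences of female minus male were 1.07 for Hspb7 (SE 0.17, adjusted p = 0.142), 0.96 for Hspb6 (SE 0.18, adjusted p = 0.317) and 0.80 for Dnaja4 (SE 0.17, adjusted p = 0.449). No member passed the adjusted threshold, against 0.038% of all tested genes. At an unadjusted p under 0.05, 4 members were higher in libraries labelled female, with Dnajb4 as the fourth at 0.42, against 1.42% of all tested genes. The 1 lower member was Dnajb1, the stress-inducible Hsp40, at −0.59, against 3.42% of all tested genes. With all 8 libraries the differences were 0.59, 0.58 and 0.44 for Hspb7, Hspb6 and Dnaja4, and the smallest adjusted p among members was 1.00. Myh1, the myosin of type IIX fibres, moved with these genes, at 1123 to 1469 FPKM in libraries labelled female, 502 to 779 FPKM in the 3 labelled male and 1539 FPKM in K320E-skm 4. Other fast fibre genes did not all go with it. Female minus male in the same fit was 1.03 for Myh1 and 1.22 for Myh2, but −0.03 for Tnnt3 and −0.27 for Tnni2. The Myh2 values overlapped between labels, from 32.8 to 110 FPKM in the 3 labelled male and from 89.3 to 269 FPKM in those labelled female. The part of Myh1 in the difference was not tested. Cryab, the αB-crystallin gene and no member of this group, stood at 274 to 368 FPKM in libraries labelled female. It was at 156 to 221 FPKM in the 3 labelled male and at 459 FPKM in K320E-skm 4.

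The sites of Hspb6 and Dnaja4 are given as 30 bases around each pair of units, since each gene has 2 RefSeq starts and these bases may be transcribed from the upstream one. Hspb6 has 1 (chr7:30553170-30553199, plus strand) and Dnaja4 has 2 (chr9:54699458-54699487 and chr9:54699496-54699525, plus strand), whereas the window of Hspb7 printed above has none. Sites outside the windows were not searched, so this describes the windows and not the genes.
Hspb6: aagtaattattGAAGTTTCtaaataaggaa
Dnaja4, distal: ggaacctccgcGAACGTTCtgggcctatgt
Dnaja4, proximal: gcctcctggcgGAACCTTCcgccggcgccg

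**Figure D4:**
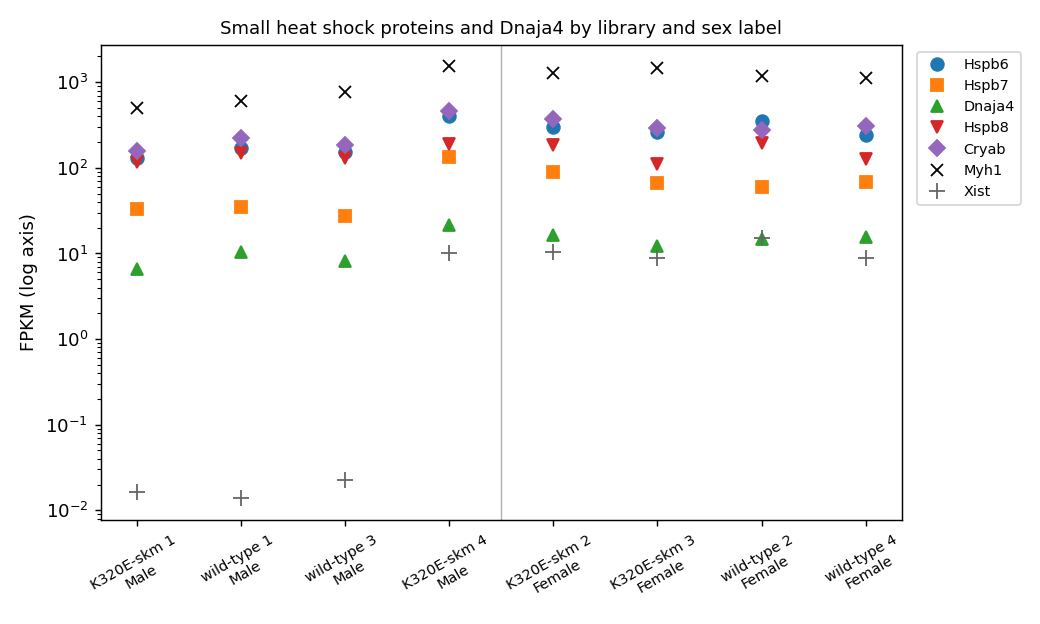
FPKM (y axis, log scale) of Hspb6, Hspb7, Dnaja4, Hspb8, Cryab, Myh1 and Xist in each of the 8 libraries, ordered by sex label. Hspb6, Hspb7, Dnaja4, Cryab and Myh1 are lower in the 3 libraries at the left than in the other 5, and K320E-skm 4, although labelled male, stands with those labelled female in Xist.

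The ER chaperones lay on both sides of 0. Of the 10 members placed in the ER role group, all tested, 2 had a log2 fold change above 0. The median was −0.11 as deposited and 0.06 rescaled. Hspa5 (ENSMUSG00000026864, chromosome 2, 34771970 to 34777547), encoding BiP, the Hsp70 of the ER, measured 52.4, 62.5, 57.5 and 40.1 FPKM in the K320E-skm libraries 1 to 4 and 55.7, 41.1, 38.3 and 47.9 FPKM in the wild-type libraries 1 to 4. K320E-skm 2 and 3 lay above all wild-type libraries and K320E-skm 4 below most of them. Its log2 fold change was 0.21 (SE 0.17, 95% interval −0.17 to 0.59) and 0.39 rescaled (SE 0.14, limma unadjusted p = 0.0226, adjusted p = 0.443). Hsp90b1 (ENSMUSG00000020048, chromosome 10, 86690209 to 86705509), the ER Hsp90 known as Grp94, stood at 23.3, 28.6, 27.5 and 22.2 FPKM against 33.4, 31.1, 24.3 and 26.4 FPKM. Its value lay on the other side of 0, at −0.17 as deposited (SE 0.14), and was 0.00 rescaled (SE 0.11).

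The soluble J proteins of the ER that assist BiP gave log2 fold changes of 0.04 for Dnajb9, −0.01 for Dnajb11, −0.22 for Dnajc3 and −0.24 for Dnajc10, a disulfide reductase. Each had an adjusted p of 0.436 or more. Dnajb14 (ENSMUSG00000074212, chromosome 3, 137867675 to 137916557), a J protein of the ER membrane that works in the removal of misfolded proteins, had the smallest p of this role group. It measured 1.11, 1.27, 1.31 and 1.57 FPKM in the K320E-skm libraries 1 to 4 and 2.12, 1.89, 1.94 and 1.58 FPKM in the wild-type libraries 1 to 4. Every mutant library was lower, the nearest pair by a small margin, and the log2 fold change was −0.32 (SE 0.11, limma adjusted p = 0.289). Rescaled, the genotypes overlapped and the value was −0.21 (SE 0.09, adjusted p = 0.516). Its close relative Dnajb12 was at −0.05 (SE 0.14), Hspa13 at −0.02 and Dnajc1 at −0.23.

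Hspa5, Hsp90b1 and Dnajc3 were the 3 members, 5.45% of the 55, whose window held the ER stress element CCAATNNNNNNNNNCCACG on either strand, against 0.13% of all genes with a window. Their sites are shown because the 3 genes carry the same element, with rescaled log2 fold changes of 0.39 (SE 0.14), 0.00 (SE 0.11) and −0.06 (SE 0.08). Each line is 30 bases on the gene's strand, from chr2:34772020-34772049 (plus), chr10:86705632-86705661 and chr10:86705527-86705556 (minus), and chr14:118937822-118937851 (plus), with the element in capitals. The second Hsp90b1 site is on the opposite strand.
Hspa5: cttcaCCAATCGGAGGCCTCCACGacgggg
Hsp90b1, distal: caagcCCAATCGCAAGGAGCCACGcttcgg
Hsp90b1, proximal: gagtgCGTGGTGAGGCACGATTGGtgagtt
Dnajc3: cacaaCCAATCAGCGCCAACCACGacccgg

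The cytosolic and nuclear DNAJA and DNAJB co-chaperones, 8 of them tested, had a median of −0.15, close to the median gene, and 0.02 rescaled. Dnaja2 (ENSMUSG00000031701, chromosome 8, 85537633 to 85555344), a main partner of Hsc70 in refolding, measured 31.3, 39.2, 35.5 and 34.5 FPKM in the K320E-skm libraries 1 to 4 and 45.6, 49.6, 39.1 and 37.9 FPKM in the wild-type libraries 1 to 4. Only K320E-skm 2 reached into the wild-type range, and the log2 fold change was −0.28 (SE 0.13, limma unadjusted p = 0.0576, adjusted p = 0.354) and −0.10 rescaled (SE 0.11). Dnajb2 (ENSMUSG00000026203, chromosome 1, 75236406 to 75245692), which binds ubiquitinated clients, was at 8.63, 9.69, 9.62 and 8.70 FPKM against 10.1, 10.6, 11.02 and 10.7 FPKM. The genotypes lay apart by a narrow gap, with a log2 fold change of −0.19 (SE 0.10, adjusted p = 0.385) and −0.03 rescaled (SE 0.11). Dnajb6, whose mutations cause a limb-girdle muscular dystrophy in people, was at −0.16 (SE 0.15), and Dnajb5 at −0.23 (SE 0.16). Dnaja1, Dnaja4 and Dnajb4 were at −0.03 (SE 0.14), 0.14 (SE 0.32) and −0.14 (SE 0.19). Dnajb1 was at 4.96, 3.64, 2.17 and 1.83 FPKM against 3.86, 1.76, 2.88 and 2.16 FPKM, with a log2 fold change of 0.15 (SE 0.25), and K320E-skm 1 was its highest library, as for Hspa1a.

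Among the remaining DNAJC genes, grouped with no regard to the place of their proteins, 15 of 17 tested members had a log2 fold change below 0, as did 8369 of all 10521 tested genes, and the median was −0.20. At an unadjusted p under 0.05, 4 were lower, where 13.6% of all tested genes were. Rescaled, the median was −0.03, 0 were lower and 1 was higher at that p, Dnajc5. Dnajc21 (ENSMUSG00000044224, chromosome 15, 10446756 to 10470516), needed for the maturation of the large ribosomal subunit, measured 12.3, 13.7, 11.5 and 13.3 FPKM in the K320E-skm libraries 1 to 4 and 16.7, 16.2, 15.7 and 15.1 FPKM in the wild-type libraries 1 to 4. All mutant libraries were lower, with means of 12.7 ± 0.987 and 15.9 ± 0.668 FPKM (SD, n = 4 each, exact permutation p = 0.0286). The log2 fold change was −0.31 (SE 0.10, limma adjusted p = 0.289) and −0.14 rescaled (SE 0.09, adjusted p = 0.641), where the genotypes overlapped.

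Dnajc9 (ENSMUSG00000021811, chromosome 14, 20384638 to 20388910), a histone co-chaperone, was at 4.43, 4.50, 4.74 and 4.58 FPKM against 7.67, 5.72, 5.12 and 5.63 FPKM. It was the one member whose genotypes lay apart on the lower side both as deposited (log2 fold change −0.33, SE 0.12, limma adjusted p = 0.298) and rescaled (−0.17, SE 0.08, adjusted p = 0.516). Dnajc25 (ENSMUSG00000070972, chromosome 4, 58995062 to 59025573) was at 1.94, 1.63, 1.65 and 1.18 FPKM against 2.50, 2.47, 2.17 and 2.05 FPKM. Its genotypes lay apart as deposited and not rescaled, and the log2 fold change was −0.35 (SE 0.12, limma adjusted p = 0.289) and −0.23 rescaled (SE 0.11).

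Dnajc7 (ENSMUSG00000014195, chromosome 11, 100582818 to 100620168), which passes clients between Hsp70 and Hsp90, was at 13.3, 15.7, 15.3 and 16.5 FPKM against 20.2, 15.4, 20.4 and 19.3 FPKM. Wild-type 2 lay among the mutant libraries, and the log2 fold change was −0.29 (SE 0.13, adjusted p = 0.336 by limma) and −0.12 rescaled (SE 0.12). Dnajc13, an endosomal protein, and Dnajc8, a splicing factor partner, were at −0.27 (SE 0.16) and −0.20 (SE 0.19). Dnajc5, the cysteine string protein of synaptic vesicles, was on the other side, at 0.10 as deposited (SE 0.11) and 0.26 rescaled (SE 0.09, limma unadjusted p = 0.0154, adjusted p = 0.405). Dnajc2, which with Hspa14 forms the ribosome-associated complex, was at −0.07 (SE 0.14), and Hspa14 at −0.05 (SE 0.16). The other 9 tested genes of this group, Dnajc4, Dnajc12, Dnajc14, Dnajc16, Dnajc17, Dnajc18, Dnajc24, Dnajc27 and Dnajc28, ran from −0.23 to 0.03, with unadjusted p of 0.171 or more by limma.

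The window of Dnajc21 (chr15:10470517-10470766, minus strand) is shown as that of a lower member. It holds neither the pair of heat shock units nor the ER stress element.
Dnajc21: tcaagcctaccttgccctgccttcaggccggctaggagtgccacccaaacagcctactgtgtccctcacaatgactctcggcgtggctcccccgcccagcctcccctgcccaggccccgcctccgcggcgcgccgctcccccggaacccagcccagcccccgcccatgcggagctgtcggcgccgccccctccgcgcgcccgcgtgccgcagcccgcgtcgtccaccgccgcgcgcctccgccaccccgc

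All 4 DNAJC genes placed in the mitochondrial role group had a log2 fold change below 0, as did 8369 of all 10521 tested genes. Of the 4, 2 were lower at an unadjusted p under 0.05, where 13.6% of all tested genes were. The median was −0.16 as deposited and 0.00 rescaled, and none passed that p rescaled. Dnajc19 (ENSMUSG00000027679, chromosome 3, 34056020 to 34081321), a subunit of the motor that pulls proteins into the mitochondrial matrix, had the lowest log2 fold change of all tested members. The K320E-skm libraries 1 to 4 measured 51.6, 44.8, 37.5 and 41.2 FPKM and the wild-type libraries 1 to 4 measured 66.8, 51.2, 53.9 and 63.2 FPKM. K320E-skm 1 just exceeded wild-type 2, and all other mutant libraries were lower than every wild-type one. The log2 fold change was −0.42 (SE 0.14, 95% interval −0.74 to −0.10, limma adjusted p = 0.289) and −0.24 rescaled (SE 0.13, adjusted p = 0.574). Dnajc19 overlaps Fxr1 on the opposite strand.

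Dnajc15 (ENSMUSG00000022013, chromosome 14, 77820681 to 77875125), a relative of Dnajc19 at the same import motor, was at 40.9, 34.0, 37.2 and 32.4 FPKM against 43.6, 44.5, 40.8 and 48.1 FPKM. The genotypes met only at K320E-skm 1 and wild-type 3, and the log2 fold change was −0.29 (SE 0.12, limma adjusted p = 0.321) and −0.11 rescaled (SE 0.14). Dnajc11, linked to cristae organisation, and Dnajc30 were at −0.01 (SE 0.14) and −0.04 (SE 0.15).

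Genes that work with these chaperones were listed by function. Of 36 tested members of the HSF1 axis and Hsp70 or Hsp90 co-chaperone list, 0 passed the adjusted threshold. At an unadjusted p under 0.05, 1 was higher and 1 lower, where 1.07% and 13.6% of all tested genes were. The median log2 fold change was −0.15 (rescaled 0.03). Rescaled, 1 was higher and 0 lower at that p, where 5.19% and 4.6% of all tested genes were. The transcription factor Hsf1 was at 0.00 (SE 0.11) and the Hsp70 exchange factor Bag3 at −0.10 (SE 0.15). The higher gene was Fkbp5, a glucocorticoid-induced Hsp90 co-chaperone. It measured 9.30, 10.9, 12.8 and 7.88 FPKM in the K320E-skm libraries 1 to 4 and 6.28, 6.38, 5.79 and 5.12 FPKM in the wild-type libraries 1 to 4. Its genotypes lay apart, with a log2 fold change of 0.69 (SE 0.15, limma adjusted p = 0.271). Other Hsp90 co-chaperones lay apart on the lower side, Sugt1 at −0.28 (SE 0.10, adjusted p = 0.298 by limma) and Chordc1 at −0.21 (SE 0.10, adjusted p = 0.370). Of all tested genes 0.333% lay apart on the higher side and 9.59% on the lower. Rescaled, 0 genes of this list lay apart on the lower side, with Sugt1 at −0.11 and Chordc1 at −0.04.

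In the list of ER folding and unfolded protein response genes outside the rule, 31 were tested and 0 passed the adjusted threshold. At an unadjusted p under 0.05, 2 were higher and 2 lower, where 1.07% and 13.6% of all tested genes were. In this list 24 genes stood above the median gene, and the median log2 fold change was 0.02 (rescaled 0.18). Rescaled, 7 were higher and 0 lower at that p, where 5.19% of all tested genes were higher and 4.6% lower, and the genotypes lay apart for 4 on the higher side (2.91% of all tested genes) and 0 on the lower. Ern1, encoding the ER stress sensor IRE1α, measured 2.31, 2.97, 2.75 and 2.47 FPKM in the K320E-skm libraries 1 to 4 and 1.98, 1.64, 1.39 and 1.43 FPKM in the wild-type libraries 1 to 4. All mutant libraries were higher, with a log2 fold change of 0.48 (SE 0.11, limma adjusted p = 0.271; rescaled 0.60, adjusted p = 0.0839). Sec62 of the translocation channel lay apart on the lower side, as 9.59% of all tested genes did, at −0.32 (SE 0.13, limma adjusted p = 0.315). Rescaled, its genotypes overlapped, at −0.15.

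The cytosolic chaperonin TRiC and its partner prefoldin, which fold actin and tubulin, had a median of −0.11 over 15 tested genes (rescaled 0.07), with none at an unadjusted p under 0.05. Rescaled, 1 was higher and 0 were lower at that p, where 5.19% and 4.6% of all tested genes were. The genotypes then lay apart for 3, all higher, against 2.91% of all tested genes. Their most abundant genes, Pfdn5 and Tcp1, were at −0.13 (SE 0.15) and −0.01 (SE 0.12). For the chaperone-assisted autophagy pathway the median over 9 tested genes, of which Hspa8 and Hspb8 are members described above, was −0.10 (rescaled 0.08). None passed the adjusted threshold, and 1 was higher and 1 lower at an unadjusted p under 0.05 (rescaled 1 and 0). Of all tested genes 1.07% were higher and 13.6% lower at that p as deposited, and 5.19% and 4.6% rescaled. Sqstm1, the autophagy receptor p62, was at 0.05 (SE 0.15).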

How the data were processed

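Total RNA of 8 tibialis anterior samples, 4 per genotype by sample title, was sequenced with a stranded kit, per the labels. The authors deposited FPKM per gene. CASAVA, TopHat2 2.0.10, Cufflinks 2.1.1 and mm10 are named in the submitters' processing notes. Neither the annotation release nor the strand setting is given in the sources used here. All 8 columns were mapped to samples and 0 were not. Overlapping or near-identical genes share fragments and are uncertain, and a value listed at 0 may be an estimate that failed. GENCODE M21 (GRCm38) matched 47950 IDs and not 378.

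Genes that reached 1 FPKM in 4 or more libraries were tested as log2(FPKM + 1), which understates changes of low genes, with limma 3.58.1 in R 4.3.3 (trend, genotype only, two-sided, Benjamini-Hochberg adjusted p under 0.05 over 10521 genes). Residual error comes from all 8 libraries. The fit was tested on simulated data. Single genes were compared by exact two-sided permutation over 70 assignments. The labels mark the samples as separate without further origin. In each genotype Xist was high in some libraries and near 0 in others, so more than 1 animal was sampled. The p-values reflect only how these samples spread, part of which may be technical. Other software was Python 3.11.15, pandas 2.3.3 and, for figures, matplotlib 3.10.9.

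The members, lists and tests were chosen with earlier results of these data known. Named were the 3 most abundant members of each role group, members whose genotypes lay apart, the 12 with the smallest p, those below the filter that reached 1 FPKM anywhere, and of each chaperone-related or immediate-early list the genes that lay apart, otherwise the 2 most abundant. Cell type marker lists were given as sums or ranges, with their 2 genes that lay apart. Other members, Hsf1, Bag3, Cryab, Myh4, the sex-label comparison, the rescaled calls and the promoters shown were chosen after their values were seen. Also tried were no filter, a pseudocount of 0.1, a minimum of 5 FPKM, protein-coding genes alone, median-ratio rescaling, quantile normalization, a sex term, a replicate block, leaving out each library and, added later, a sex term without K320E-skm 4.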

Additional observations from a re-analysis of the deposited data

Results flagged for a closer look

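Of 112 groups of 4 libraries examined for the tested members, 3, or 2.68%, held a library far from the other 3 of its genotype by Dixon's criterion, and chance gives about 1 in 20. Dnajc14 reached 3.591 FPKM in wild-type 1, while the other libraries of its genotype held 2.557 to 2.722 FPKM. Hspb3 was at 22.12 FPKM in wild-type 1, against 15.45 to 16.58 FPKM. Dnajc11 was at 7.301 FPKM in K320E-skm 1, against 9.484 to 9.747 FPKM. Wild-type 1 also had the largest median-ratio factor, 1.28, of the 8 libraries. Its part in these values was not tested.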

How the results depend on the processing

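No member passed the adjusted threshold under any alternative run. Over all genes, 2 passed as reported, 1 with no filter, 1 with a filter of 5 FPKM, 0 among protein-coding genes alone, and 1 to 4 when 1 library was left out, with 1 without K320E-skm 2 or K320E-skm 3 and 4 without K320E-skm 4. The members' median log2 fold change of −0.11 became 0.033 by median-ratio rescaling and 0.027 by quantile normalization. Members whose genotypes lay apart, 5 as reported, were 3 with a filter of 5 FPKM, which tests fewer genes, and 8 with a sex term and K320E-skm 4 left out. Leaving out 1 library gave 5 to 12, with 12 without wild-type 2, 9 without wild-type 3 and 8 without K320E-skm 1 or K320E-skm 4. Fewer libraries make separation easier for any gene. Members at an unadjusted p under 0.05, 8 as reported, were 13 with no filter, 4 by median-ratio rescaling, 5 by quantile normalization, 5 with a sex term, 5 without K320E-skm 2, 3 without K320E-skm 3 and 5 with a sex term and K320E-skm 4 left out. The shares of all tested genes that lay apart or had such a p were counted only as reported and after median-ratio rescaling. Relative to the median gene, 4 of 439 values of the 26 named members moved by over 1 SD of single libraries within a genotype. Leaving out 1 of 4 libraries can hardly move a mean that far, so this count does not show that the values are stable.

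Samples with the same replicate number deviated together with correlations of 0.156, 0.0233, 0.0442 and 0.0395, so the numbers were not taken to pair the samples. With the replicate number as a block, 2 genes and 0 members passed, the smallest adjusted p of a member was 0.313, and 2 members were higher and 5 lower at an unadjusted p under 0.05. The files hold no counts, so what depth limits cannot be given.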

Other observations

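Immediate-early genes, which handling and stress switch on within minutes, were listed as a further readout of stress in the tissue. Of 13 tested, 12 stood above the median gene, 0 passed the adjusted threshold and 0 had an unadjusted p under 0.05, with a median log2 fold change of 0.04 (rescaled 0.21). Rescaled, 2 were higher and 0 lower at that p, where 5.19% of all tested genes were higher. The most abundant, Dusp1 and Nr4a1, were at −0.09 (SE 0.18) and 0.16 (SE 0.37). Atf3, picked out after its values were seen, averaged 12.3 ± 11.8 FPKM with the mutation and 3.62 ± 2.32 FPKM without (SD, n = 4 each, exact permutation p = 0.114). K320E-skm 2 held 29.4 FPKM, and the other mutant libraries, at 2.65 to 9.43 FPKM, overlapped the wild-type ones at 1.30 to 6.82 FPKM.

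Flnc, the filamin that Hspb7 binds, was picked out after its values were seen. It measured 56.5, 110, 102 and 91.8 FPKM in the K320E-skm libraries 1 to 4 and 51.7, 58.4, 48.2 and 71.8 FPKM in the wild-type libraries 1 to 4. K320E-skm 1 lay inside the wild-type range and the other mutant libraries above it. The log2 fold change was 0.61 (SE 0.22, limma adjusted p = 0.293) and 0.79 rescaled. Synpo2, also of the chaperone-assisted autophagy list, lay on the other side, at −0.395 (SE 0.175, limma adjusted p = 0.339) and −0.216 rescaled. Flnc was the 1 higher gene and Synpo2 the 1 lower gene of that list at an unadjusted p under 0.05 as deposited.

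Of cell type markers, summed FPKM of the 6 macrophage genes were 33.4 to 90.9 in K320E-skm and 30.3 to 74.7 in wild-type muscle, and those of 4 fibroblast genes 156 to 266 and 160 to 422. Of all marker genes listed, 2 lay apart by genotype, against 9.59% of all tested genes on the lower side. Both were lower in K320E-skm muscle. Mbp, a myelin gene, averaged 3.10 ± 0.781 FPKM there and 5.82 ± 1.94 FPKM in wild-type muscle (SD, n = 4 each), a log2 fold change of −0.71 (SE 0.21, limma adjusted p = 0.283). Tnnt3, fast troponin T, averaged 7644 ± 629 and 9747 ± 455 FPKM (SD, n = 4 each), a log2 fold change of −0.35 (SE 0.18, limma adjusted p = 0.382). Rescaled, the genotypes overlapped for both. The satellite cell markers Pax7 and Myf5 were below 1 FPKM in all libraries. Among low chaperone genes, Hspb9, known from testis, was at 0.0463 to 0.102 FPKM in K320E-skm and at 0 to 0.0444 FPKM in wild-type muscle.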
